A study of Mus musculus with 4 samples.

Results

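The genes described here make, receive and break down prostaglandins in the embryonic salivary gland of the mouse. They are Hpgd, Ptgs1, Ptgs2, Ptges, Ptges3 and Ptger4, 6 of the 27998 genes listed in the files, and all 6 were found by symbol. Hpgd was chosen because its levels in these libraries differ between the glands in opposite directions in epithelium and in mesenchyme, and the others were added as its partners by name. The gland differences of Hpgd are therefore a description, and the 4 libraries are compared by level without a test.

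Prostaglandins are short-range lipid signals made from arachidonic acid, which phospholipases such as Pla2g4a free from membranes. The cyclooxygenases Ptgs1 (constitutive) and Ptgs2 (inducible) turn it into prostaglandin H2, and terminal synthases such as the membrane enzyme Ptges and the cytosolic Ptges3, also known as the Hsp90 co-chaperone p23, can turn that into prostaglandin E2. Ptger4 encodes the EP4 receptor for prostaglandin E2, the transporter Slco2a1 carries prostaglandins into cells, and Hpgd, 15-hydroxyprostaglandin dehydrogenase, starts their inactivation inside the cell.

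Submandibular and parotid glands came from untreated ICR mouse embryos at embryonic day 12, about 10 glands of each kind pooled. Epithelium and mesenchyme were parted with Dispase II and each was dissociated in a cold bacterial protease before capture on the 10x Chromium system. The 4 groups, submandibular epithelium, parotid epithelium, submandibular mesenchyme and parotid mesenchyme, had 1 library each, so no group has a replicate, no p-value is given, and every interval is a 95% interval for counting error only. Differences between litters, animals and dissections cannot be told apart from differences between glands or tissues.

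The libraries held 1996 to 4971 barcodes and between 14004908 UMIs (unique molecular identifiers, each marking 1 captured RNA molecule) in parotid epithelium and 39621166 in submandibular epithelium. After filtering, 14884 barcodes remained, with median depths of 5520.5 to 9578 UMIs, and 120 barcode sequences occurred in more than 1 library. The main classes were 3609 submandibular and 1753 parotid epithelial-like cells from the epithelium libraries and 4225 and 3910 mesenchymal-like cells from the matching mesenchyme libraries. A list of 13 epithelial markers summed to 3459 and 4836 CPM (UMIs per 1000000 of the class total) in the epithelial-like cells and to 27.8 and 6.12 CPM in the mesenchymal-like cells of the submandibular and parotid glands. A list of 11 mesenchymal markers summed to 32.3 and 136 CPM in the epithelial-like and to 3860 and 5089 CPM in the mesenchymal-like cells. The classes were named from these same lists, so the sums describe the classes and are no check of the tissue labels.

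Hpgd (ENSMUSG00000031613) lies on the plus strand of chromosome 8 at 56294585 to 56321043 in GRCm38. Its promoter is printed because Hpgd is the gene that the results turn on. That of Slco2a1 (ENSMUSG00000032548, chromosome 9, 102988712 to 103096002, plus strand) is printed because its level followed Hpgd across the epithelial clusters of both glands pooled. Both are RefSeq sequences of GRCm38.p6, read 5′ to 3′ from 250 bases before to 50 bases after the annotated start, and all 6 members have an entry in that table. Capitals mark each match to TATAAA, the core of a TATA box, and to CATTGT, a core motif bound by SOX factors, both searched on both strands, where CATTGT on the minus strand reads ACAATG.
Hpgd, chr8:56294302-56294601: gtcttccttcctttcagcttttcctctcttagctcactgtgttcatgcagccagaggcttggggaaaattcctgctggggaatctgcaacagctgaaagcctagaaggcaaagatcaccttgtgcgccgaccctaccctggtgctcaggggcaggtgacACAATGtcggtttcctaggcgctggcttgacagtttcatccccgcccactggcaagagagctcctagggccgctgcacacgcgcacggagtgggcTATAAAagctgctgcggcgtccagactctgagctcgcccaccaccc
Slco2a1, chr9:103008237-103008536: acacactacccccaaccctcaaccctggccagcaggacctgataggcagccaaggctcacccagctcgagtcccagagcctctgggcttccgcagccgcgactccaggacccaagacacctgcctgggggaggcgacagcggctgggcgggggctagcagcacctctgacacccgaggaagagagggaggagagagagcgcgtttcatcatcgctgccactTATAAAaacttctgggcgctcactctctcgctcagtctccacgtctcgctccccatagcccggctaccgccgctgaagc

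The start of Hpgd differs between annotations. In the Hpgd stretch TATAAA on the plus strand began 4 bases after the RefSeq start, which is 29 bases before the GENCODE start, and ACAATG began 91 bases before the RefSeq and 124 bases before the GENCODE start. The Slco2a1 stretch held TATAAA, beginning 29 bases before its RefSeq start, and no CATTGT on either strand; the GENCODE start of Slco2a1 lies upstream of this whole stretch. Of 32851 promoter stretches of this length, 13.6% held TATAAA and 12.6% held CATTGT on either strand, so such matches are common. Among the other members, the Ptges stretch held CATTGT on the minus strand and the stretches of Ptgs1, Ptgs2, Ptges3 and Ptger4 held neither motif.

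Among the main classes Hpgd was highest in the epithelium of the submandibular gland and, at a lower level, in the mesenchyme of the parotid gland. In submandibular epithelial-like cells it stood at 119 CPM (116 to 123), from 4567 UMIs. In parotid epithelial-like cells it stood at 7.0 CPM (5.65 to 8.58), from 93 UMIs. In submandibular mesenchymal-like cells it stood at 1.15 CPM (0.765 to 1.66), from 28 UMIs, and in the parotid mesenchymal-like cells it reached 16.2 CPM (14.6 to 17.9), from 383 UMIs. The 4 intervals did not overlap, and the order was submandibular epithelium, parotid mesenchyme, parotid epithelium and submandibular mesenchyme.

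Between glands, Hpgd was 17.1-fold higher in submandibular than in parotid epithelium (13.9 to 21.2), and 14.0-fold higher in parotid than in submandibular mesenchyme (9.57 to 21.4). Between tissues, it was 104-fold higher in the epithelium of the submandibular gland (71.7 to 156) and 2.31-fold higher in the mesenchyme of the parotid gland (1.84 to 2.93). With every barcode of each library and no classes, the difference between mesenchymes was 3.59-fold and that between submandibular tissues 28.6-fold; endothelial-like and macrophage-like cells of the submandibular mesenchyme library also held Hpgd. The mean of each cell's own CPM gave 69.3-fold for the submandibular tissues.

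By cells, 1432 of 3609 submandibular epithelial-like cells had an Hpgd UMI (39.7%, 38.1 to 41.3), and 652 of them had 3 or more, with up to 19 in 1 cell. In parotid epithelium 56 of 1753 cells had one (3.19%), in parotid mesenchyme 243 of 3910 (6.21%), and in submandibular mesenchyme 22 of 4225 (0.521%), none with more than 2. Median depths were 9833, 7139, 5561.5 and 5270 UMIs in that order of classes. With each cell thinned to 2000 UMIs the shares were 15.2%, 0.806%, 2.81% and 0.213%, which rank the classes as the CPM do. Erythroid-like cells of the submandibular mesenchyme library had a UMI in 1 of 106 cells (0.943%, 0.0239 to 5.14) at a median of 17195 UMIs. Those of the parotid library had one in 0 of 69. The submandibular erythroid level of 0.55 CPM (0.0139 to 3.06) rests on 1 UMI, and its interval overlaps that of the submandibular mesenchymal-like cells. The 28 UMIs of those mesenchymal-like cells are the base of the 14.0-fold and 104-fold ratios. How many of them come from other cells was not tested.

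Smaller classes held Hpgd too. The 22 macrophage-like cells of the submandibular mesenchyme library had the highest level of any class, 136 CPM (93.7 to 191), from 33 UMIs in 14 cells, an interval that overlaps that of submandibular epithelium. The 9 macrophage-like cells of the parotid library gave 2 UMIs, or 19.1 CPM (2.31 to 68.9), an interval that lies below the submandibular one. Endothelial-like cells stood at 72.9 CPM (53.4 to 97.2) in the parotid and 47.8 CPM (36.7 to 61.3) in the submandibular mesenchyme library, intervals that overlap.

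Of the 124 Hpgd UMIs of the submandibular mesenchyme library, 62 came from endothelial-like, 33 from macrophage-like and 28 from mesenchymal-like cells. In the parotid mesenchyme library 84.4% of 454 UMIs came from mesenchymal-like cells. The 120 epithelial-like cells left in that library stood at 10.3 CPM (5.16 to 18.5), which overlaps both parotid main classes, and skeletal muscle-like cells at 3.31 CPM. Neural crest-like cells (146), skeletal muscle-like cells (130) and chondrogenic-like cells (56) of the submandibular library had no UMI, which allows shares of cells with one of up to 2.05%, 2.31% and 5.36%. Of the 22 mesenchymal-like cells in the submandibular epithelium library, 1 cell held all 5 UMIs.

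**Figure D1:**
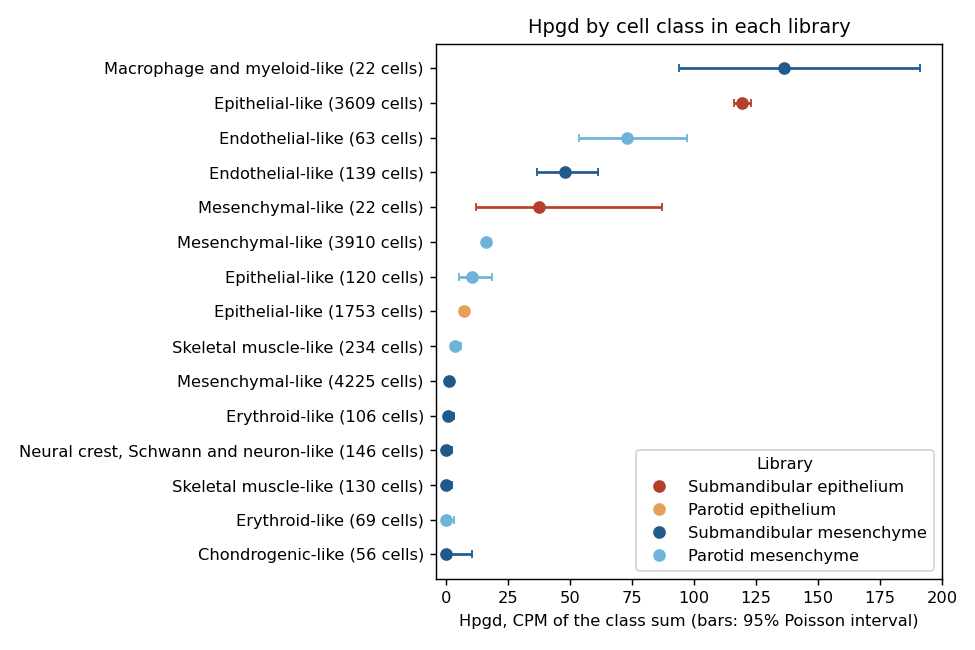
Hpgd level (CPM of the class sum, points, with 95% Poisson intervals as bars) in every named class of at least 20 cells, coloured by library. Submandibular macrophage-like and epithelial-like cells lead at 136 and 119 CPM, both endothelial classes follow, and the parotid epithelial-like and submandibular mesenchymal-like cells lie at 7.0 and 1.15 CPM.

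Within submandibular epithelium Hpgd was unevenly spread over the 9 clusters, which were formed without any prostaglandin pathway gene. A cluster led by Ccne2 and Ccne1, cyclins of the G1 to S transition, stood at 189 CPM (177 to 201). The cluster led by Ngfr and P2rx4 stood at 184 CPM, that led by Abhd2 and Slc39a1 at 174 CPM, that led by the mitotic genes Ube2c and Plk1 at 151 CPM, and that led by Cxcr4 and the FGF feedback gene Spry2 at 147 CPM. These 5 clusters held 54.1% of the cells and 91.8% of the Hpgd UMIs. They also held 71.6% of the UMIs of Ptges3, so a share of UMIs above that of cells is not particular to Hpgd.

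The other submandibular epithelial clusters stepped down from there. The cluster led by Ung and Sostdc1 stood at 64.1 CPM (55.7 to 73.4) and that led by Fst and Dapl1 at 24.7 CPM. The cluster with the duct keratin Krt19 and with Krt6a among its leading genes stood at 11.3 CPM (7.54 to 16.2), and that led by the keratin Krt15 with Igfbp5 at 8.64 CPM (5.64 to 12.7), where 2.69% of cells had a UMI. Median depth also differed between clusters, from 5422.5 UMIs in the Krt15 cluster to 14012 in the Ube2c cluster; CPM allow for depth and shares of cells do not.

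Parotid epithelium held most of its Hpgd in a narrow set of cells. A cluster led by Igfbp3, Lmcd1, Sema6a and Sox10 stood at 25.5 CPM (17.7 to 35.7) and one led by Igfbp3, Ngfr and Lmcd1 at 21.3 CPM (15.3 to 28.9). Together they held 21.3% of the cells and 80.6% of the Hpgd UMIs. Of the other 9 clusters, 5 lay between 0.923 and 4.26 CPM and 4 had no UMI, which allows up to 3.39 to 3.82 CPM in each. The 2 leading clusters thus stood above the lowest submandibular cluster (8.64 CPM), and close to the Fst and Dapl1 cluster (24.7 CPM).

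Parotid mesenchyme likewise held most of its Hpgd in a minority of its 12 clusters, though 0 of the 12 lacked an Hpgd UMI. The cluster led by a (the agouti gene), Col8a1 and Trps1 stood at 112 CPM (94.1 to 132), with a UMI in 34.4% of its cells, a level between those of submandibular epithelial clusters. The cluster led by the homeobox gene Gsc and by Twist2 stood at 91.7 CPM (68.9 to 120), and that led by Col8a1 and Pam at 59.1 CPM (43.3 to 78.8). These 3 clusters held 12.9% of the cells and 61.9% of the UMIs. The others lay between 0.896 and 25.7 CPM, with the highest of them led by Gdf10 and Sema3a. In submandibular mesenchyme all 10 clusters lay between 0 and 2.48 CPM.

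**Figure D2:**
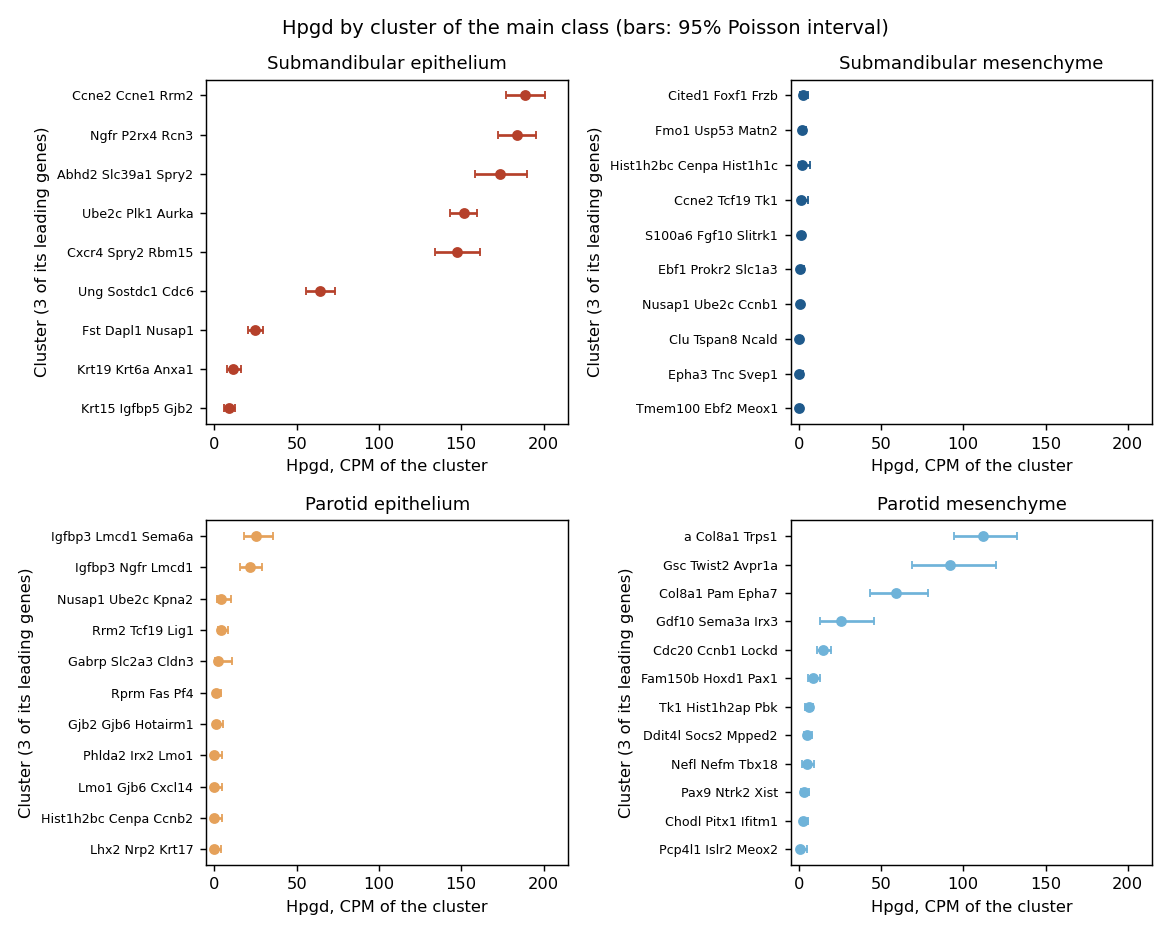
Hpgd level (CPM, points, with 95% Poisson intervals as bars) in each cluster of the main class of the 4 libraries, with clusters named by 3 of their leading genes. Submandibular epithelial clusters run from 8.64 to 189 CPM and parotid mesenchymal clusters from 0.896 to 112 CPM, while all submandibular mesenchymal clusters lie at or below 2.48 CPM.

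Single genes that mark known states of these tissues in earlier results on the same libraries were used to sort cells further. Sox10, a transcription factor of the end bud, had a UMI in 904 submandibular and 192 parotid epithelial-like cells. Hpgd stood at 170.3 CPM (163 to 178) in the submandibular and 20.7 CPM (14.7 to 28.4) in the parotid cells with Sox10, against 93.2 and 4.80 CPM without. The gland ratio was 8.22-fold (5.97 to 11.6) among cells with a Sox10 UMI and 19.4-fold (14.9 to 25.8) among those without. In cells of the 2 glands with a UMI of the duct keratin Krt19 Hpgd stood at 50.5 and 2.37 CPM, against 134 and 9.49 CPM without it. With the basal keratin Krt5 it stood at 38.6 and 4.17 CPM, against 132 and 14.3 CPM without it. Krt5 had a UMI in 562 of 3609 submandibular and 1260 of 1753 parotid cells. The gland ratio of Hpgd was 9.26-fold (6.57 to 13.3) among cells with it and 9.21-fold (7.03 to 12.3) among those without it, both below the 17.1-fold of all epithelial-like cells.

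In parotid mesenchyme the cells with a UMI of Pax1, a paired-box transcription factor, stood at 36.6 CPM of Hpgd (32.4 to 41.3) and those without at 6.88 CPM, a 5.33-fold difference (4.26 to 6.70). No submandibular mesenchymal-like cell had a Pax1 UMI, and among cells without one Hpgd was 5.97-fold higher in the parotid gland (3.92 to 9.39). Cells with a UMI of Aldh1a2, an enzyme of retinoic acid synthesis, stood at 3.54 CPM against 18.5 CPM without. Those with the homeobox gene Msx1 stood at 8.43 CPM against 18.7 CPM. Tbx18, Pou3f3 and Cxcl14 parted parotid cells by less than 1.4-fold. A UMI of a sorting gene is also more often seen in deep cells, and the part of depth was not tested.

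Among all genes, 7032 reached 10 CPM in both tissues, and 14 of them were at least 2-fold higher in submandibular epithelium and, at the same time, in parotid mesenchyme. Another 23 had the mirror pattern, 33 were higher in both submandibular and 40 in both parotid tissues. Ranked by the smaller of its gland ratios, Hpgd was the highest of the 14, as its choice implies, with the ALK ligand gene Fam150b next (13.5-fold and 12.03-fold). Irx1, Six2 and Tbx3, which encode transcription factors, were also among them, and Irx1 was 3.91-fold higher in submandibular epithelium and 13.6-fold higher in parotid mesenchyme.

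The cyclooxygenases were sparse in the gland tissues. Ptgs1 (ENSMUSG00000047250, chromosome 2, 36230426 to 36252272, plus strand) gave 12 UMIs in the submandibular and 2 in the parotid epithelium class, and 48 and 36 in the mesenchymal-like cells, or 1.97 and 1.52 CPM. The mesenchymal levels did not differ beyond counting error between glands (ratio 1.30, 0.825 to 2.06). Macrophage-like cells of the submandibular mesenchyme library stood apart at 132 CPM of Ptgs1 (90.3 to 186), from 32 UMIs in 18 of 22 cells, and the 9 parotid ones gave 4 UMIs. Endothelial-like cells stood at 16.2 CPM (10.0 to 24.8) in the submandibular and 6.34 CPM (1.73 to 16.2) in the parotid library. The macrophage-like cells of the submandibular library were thus high in both Ptgs1 and Hpgd.

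Ptgs2 (ENSMUSG00000032487, chromosome 1, 150100031 to 150108227, plus strand) had no UMI in the 3609 submandibular and 1753 parotid epithelial-like cells, which allows up to 0.0831% and 0.171% of cells with one. It gave 2 UMIs in the submandibular and 9 in the parotid mesenchymal class, a ratio whose interval includes 1 (parotid 4.62-fold, 0.957 to 44.0). Ptgs2 is an inducible gene, so 18 immediate early and heat shock genes that respond to dissociation were read beside it. They summed to 6839 and 8294 CPM in submandibular and parotid epithelium and to 7705 and 9427 CPM in the mesenchymes. Hsp90ab1 and Hspa8 were the largest terms of every sum, at 2711 and 1950 CPM in submandibular and 2321 and 1992 CPM in parotid epithelium. The sums therefore say little about the less abundant genes. Of the 18, 11 were at least 2-fold higher in parotid epithelium, 4 in parotid mesenchyme and 0 in the submandibular tissues. Over all genes of at least 10 CPM, the parotid shares were 3.87% in epithelium and 3.93% in mesenchyme. The submandibular shares were 2.80% and 6.11%. The counts of the 18 had no CPM minimum and include Hspa1b, at 0.863 against 4.29 CPM in epithelium and 0.781 against 3.17 CPM in mesenchyme (submandibular against parotid). Their part in the Ptgs2 counts was not tested.

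Ptges (ENSMUSG00000050737, chromosome 2, 30889471 to 30929863, minus strand) was higher in the submandibular gland in both tissues, and in the mesenchyme of each gland. It stood at 10.1 CPM (9.11 to 11.2) in submandibular and 4.59 CPM (3.51 to 5.90) in parotid epithelial-like cells, and at 21.4 CPM (19.6 to 23.3) in submandibular and 6.67 CPM (5.67 to 7.80) in parotid mesenchymal-like cells. The submandibular level was 2.20-fold higher in epithelium (1.67 to 2.93) and 3.20-fold higher in mesenchyme (2.68 to 3.85). The mesenchyme was 2.12-fold above the epithelium in the submandibular gland (1.85 to 2.42) and 1.45-fold in the parotid gland (1.07 to 1.99).

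Ptges was spread more evenly over clusters than Hpgd. All 10 submandibular mesenchymal clusters lay between 10.97 and 30.3 CPM, the highest led by Clu and Tspan8. Submandibular epithelial clusters lay between 3.56 and 14.8 CPM, where the Ccne2 and Ccne1 cluster that led in Hpgd also led in Ptges. In parotid epithelium the highest cluster was that led by Gabrp and Cldn3, at 20.7 CPM, and the 10 others lay between 1.27 and 7.38 CPM. Parotid mesenchymal clusters ran from 0 CPM in the Gsc and Twist2 cluster, which held 54 Hpgd UMIs, to 14.0 CPM. That cluster has 96 cells, too few at these levels for its 0 to show that Ptges is absent. Erythroid-like and macrophage-like cells of both mesenchyme libraries had no Ptges UMI. This allows up to 1.65 and 2.55 CPM in the submandibular and parotid erythroid-like cells. In the 22 submandibular and 9 parotid macrophage-like cells it allows up to 12.4 and 28.6 CPM, above the level of both parotid main classes.

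Ptges3 (ENSMUSG00000071072, chromosome 10, 128058954 to 128077272, plus strand) was found in all 4 main classes at 179, 134, 139 and 140 CPM, in the order submandibular epithelium, parotid epithelium, submandibular mesenchyme and parotid mesenchyme. It was 1.34-fold higher in submandibular than in parotid epithelium (1.27 to 1.41), and its ratio was 0.998 between the mesenchymes (0.951 to 1.05). Skeletal muscle-like cells held 233 and 210.0 CPM in the submandibular and parotid libraries and erythroid-like cells 17.1 and 21.2 CPM. Its clusters lay within 88.6 to 211 CPM in all main classes.

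Ptger4 (ENSMUSG00000039942, chromosome 15, 5206661 to 5244187, minus strand) was a low mesenchymal gene. It gave 9 UMIs in the submandibular and 2 in the parotid epithelial class, 69 in submandibular mesenchymal-like cells (2.84 CPM, 2.21 to 3.59) and 17 in parotid ones (0.718 CPM, 0.418 to 1.15). The submandibular mesenchyme was 3.95-fold above the parotid mesenchyme (2.30 to 7.17) and 12.1-fold above its own epithelium (5.99 to 27.5). Its highest cluster there was that led by Fmo1 and Usp53, at 6.84 CPM. The 22 submandibular macrophage-like cells gave 4 UMIs, or 16.5 CPM (4.50 to 42.3), and skeletal muscle-like, neural crest-like, erythroid-like and chondrogenic-like cells of that library gave none.

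The wider pathway was read from 42 listed genes, the 6 members included, of which 14 reached 10 CPM in at least 1 main class and 28 did not. None of the 9 receptor genes and none of the 5 lipoxygenase genes reached it. In epithelium 13 of the 42 reached 10 CPM in the higher gland. The submandibular level was 2-fold higher or more for 3 (Hpgd, Ptges and Slco2a1), where the share over all 7723 genes at that level was 2.80%, and 0 were higher in parotid epithelium, against 3.87%. In mesenchyme 11 reached it, with Pla2g4a, Ptges and Ptgis at least 2-fold higher in the submandibular gland, against 6.11% of 8363 genes, and Hpgd in the parotid gland, against 3.93%.

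At 50 CPM and 2-fold, Hpgd alone of 5 pathway genes passed in epithelium, on the submandibular side, where 2.09% of 3015 genes passed, and none passed on the parotid side, where 2.82% did. In mesenchyme none of 4 passed, where 3.98% of 3267 genes were higher in the submandibular and 3.58% in the parotid gland. Those mesenchymal shares came from 130 and 117 genes, which TMM scaling turned into 107 and 145. Since Hpgd was chosen on these contrasts, its place in the counts is not a result. The median log2 ratio of submandibular over parotid at 10 CPM was 0.12 over the pathway genes and -0.02 over all genes in epithelium, and 0.00 and 0.08 in mesenchyme.

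Genes that bracket Hpgd in the pathway differed between glands in different ways. Slco2a1, which imports the substrates of Hpgd, stood at 13.4 CPM in submandibular and 2.11 CPM in parotid epithelial-like cells (6.38-fold, 4.36 to 9.69), and at 6.17 and 2.41 CPM in the mesenchymes (2.56-fold, 1.88 to 3.54). Unlike Hpgd, it was thus higher in the submandibular gland in both tissues. Ptgis, the prostacyclin synthase, stood at 41.2 CPM in submandibular and 6.76 CPM in parotid mesenchyme (6.09-fold, 5.15 to 7.24), and below 1 CPM in both epithelia. Pla2g4a, the cytosolic phospholipase A2, stood at 24.9 and 4.26 CPM in submandibular and parotid mesenchyme (5.83-fold, 4.72 to 7.27), but at 19.1 and 24.1 CPM in the epithelia. Its highest cluster was the Gabrp and Cldn3 cluster of parotid epithelium, at 82.6 CPM.

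Other listed genes were more even. The reductases Ptgr1 and Ptgr2, which act after Hpgd in the breakdown of prostaglandins, stood at 11.04 and 9.55 CPM in submandibular and 14.7 and 13.1 CPM in parotid epithelium, and at 41.3 and 4.97 against 31.8 and 3.34 CPM in the mesenchymes. The synthesis genes Ptges2, Cbr1 and Fam213b differed between glands by less than 1.2-fold in either tissue. Akr1b3 and the phospholipase gene Pla2g12a were 1.18-fold and 1.21-fold higher in submandibular epithelium and 1.53-fold and 1.28-fold higher in parotid mesenchyme. Among receptors, Ptger3, which encodes EP3, stood at 4.60 CPM in submandibular and 0.718 CPM in parotid mesenchyme (6.41-fold, 3.83 to 11.4).

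**Figure D3:**
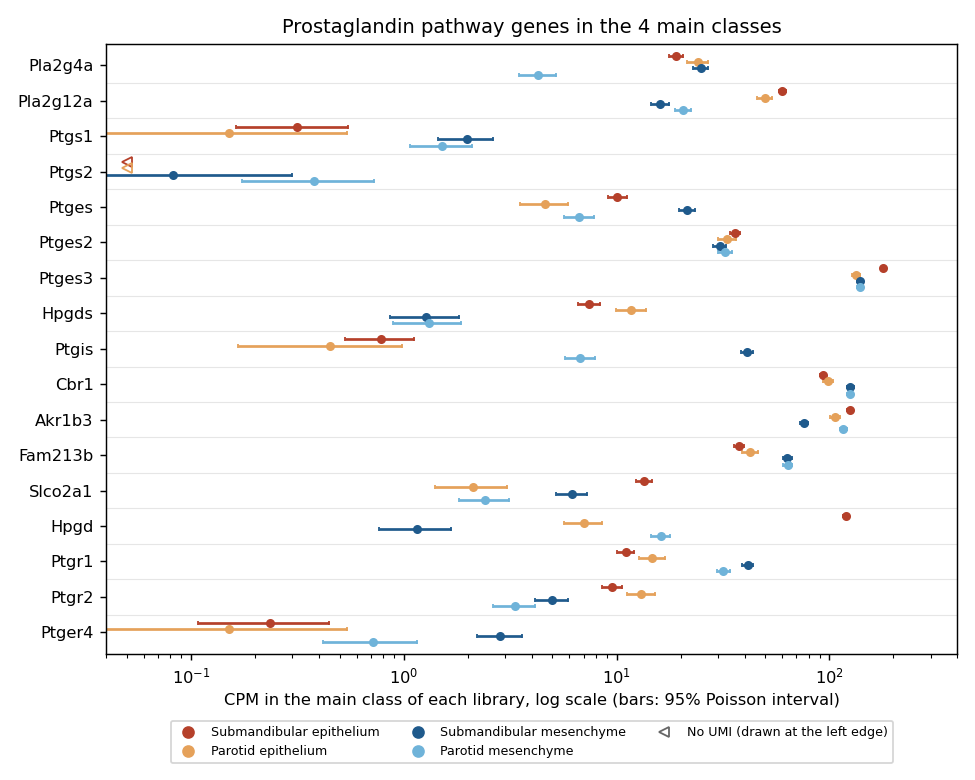
Levels (CPM, log scale, with 95% Poisson intervals as bars) of the members and of the listed pathway genes that reached 10 CPM, in the main class of each library; bars that reach the left edge are cut there, and open triangles mark classes without a UMI. Hpgd runs from 1.15 to 119 CPM, while Ptges3 stays between 134 and 179 CPM.

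Across the 20 epithelial clusters of at least 30 cells in both epithelium libraries, the genes whose log2(CPM + 1) followed Hpgd most closely among 3957 compared were Pum3 (r = 0.96), Mia (0.95), Eif5b (0.95), Gfer (0.94) and Hs3st1 (0.94). Mia, a secreted protein gene, stood at 110 CPM in submandibular and 11.1 CPM in parotid epithelium, and Hs3st1, a heparan sulphate sulphotransferase, at 40.9 and 15.1 CPM. All 5 genes also followed Hpgd within each gland, at 0.91 to 0.98 over 9 submandibular and 0.78 to 0.97 over 11 parotid clusters. Over the 22 mesenchymal clusters the closest were Fbn2 (0.86), Tcea1 (0.85), Eif2s2 (0.84), Tmed7 (0.84) and Pax1 (0.84). Within the 12 parotid clusters they gave 0.71 to 0.91, and within the 10 submandibular ones, where Hpgd is near 0, no like value. Clusters of a library share its cells' preparation and depth, so these values describe likeness and carry no test.

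Of the pathway genes, Slco2a1 followed Hpgd across epithelial clusters (r = 0.91 over 20), and Ptgis (0.65, at no more than 1.68 CPM in a cluster), Ptges3 (0.63) and Ptges (0.61) less closely, while Ptgr1 ran opposite (-0.67). These 20 clusters pool 2 glands that differ in both Hpgd and Slco2a1, and no value within 1 gland is given for these genes. Across the 22 mesenchymal clusters Ptgis (-0.76), Ptges (-0.66), Ptger4 (-0.65) and Pla2g4a (-0.65) ran opposite to Hpgd. Ptgs2 ran with it (0.73), from 2 submandibular and 9 parotid UMIs. Much of the mesenchymal relation lies between the glands, since every submandibular cluster was low in Hpgd and at or above 27.3 CPM in Ptgis.

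**Figure D4:**
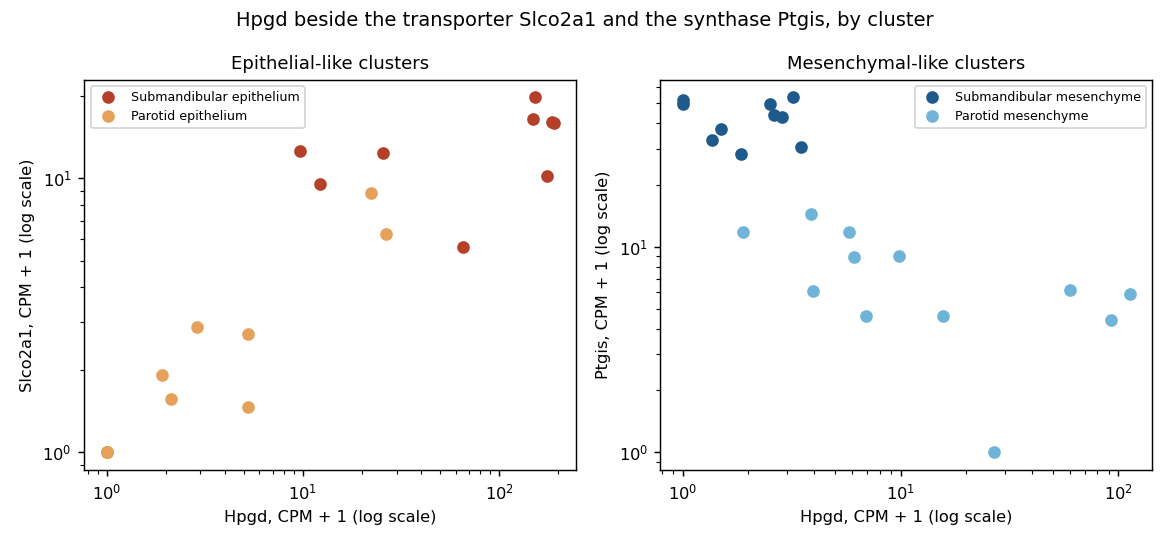
Clusters of at least 30 cells placed by their Hpgd level (CPM + 1, log scale) and by their level of Slco2a1 in epithelium (left) or of Ptgis in mesenchyme (right), coloured by library. In epithelium the clusters highest in Hpgd reach 9.24 to 18.7 CPM of Slco2a1; in mesenchyme the submandibular clusters lie at 27.3 to 52.2 CPM of Ptgis, all above the parotid clusters.

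Members were also counted together in single cells, as deposited and at equal depth. In submandibular epithelium Ptges had a UMI in 15.6% of cells with and 5.47% of cells without an Hpgd UMI, at median depths of 12623.5 and 7664 UMIs. Thinning to 2000 UMIs also re-sorted the cells by their thinned Hpgd counts, into 549 with and 3060 without an Hpgd UMI. Cells whose Hpgd UMIs were lost by thinning thus count among those without. The shares after thinning are therefore not of the same groups of cells, and the part of depth was not tested. For Ptges these shares were 2.55% (1.40 to 4.24) and 1.50% (1.10 to 2.0), and the intervals overlap. Slco2a1 was seen in 17.2% and 9.78%, and after thinning in 2.91% (1.67 to 4.69) and 2.48% (1.96 to 3.10). Ptges3 was seen in 88.1% and 67.0%, and after thinning in 33.9% (29.9 to 38.0) and 27.4% (25.8 to 29.0), where the intervals do not overlap. In parotid mesenchyme, where cells with and without Hpgd had like depths of 5431 and 5570 UMIs, Ptges was seen in 4.12% and 3.85%.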

How the data were processed

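The deposited values are whole-number UMI counts per gene and barcode, not normalized by the authors. Cell Ranger 2.1.1 and the mm10 (GRCm38) build are named in the submitters' processing notes. A barcode needed 500 or more genes and no more than 10% mitochondrial UMIs, which removed 467. Each library was clustered alone on 2000 variable genes without the 42 pathway genes (30 principal components, 15 neighbours, Leiden resolution 0.8, scanpy 1.11.5, igraph 0.11.9). Clusters were named from 12 marker lists, with at least 3 markers in 25% of cells. Of 60 clusters, 58 were named, and 2 of 136 and 93 cells, with median mitochondrial shares under 1% (a threshold set after seeing the data), were not. Scrublet called 9 barcodes doublets (0.0605%), which means that it did not work, so doublets were in effect not removed. UMIs summed per class gave CPM.

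CPM have exact Poisson, ratios exact conditional binomial and shares Clopper-Pearson 95% intervals; a count of 0 allows up to 3 UMIs or cells, and all of these cover counting error only. Listed pathway genes were named where they reached 10 CPM in a main class, with Ptger3 and the named genes that share Hpgd's gland pattern added after their values were seen, as were the pathway genes of the closing part below 10 CPM. The 5 genes most like Hpgd had the highest Pearson correlation of log2(CPM + 1) over clusters of at least 30 cells, among genes of 50 CPM in 1 of them. A few leading genes are left out of the text. The members and all lists were chosen with earlier results of these data known. The scripts were tested on simulated data. Alternatives included TMM scaling (edgeR 4.0.16), other filters, resolutions and class rules, and, added after seeing the data, leaving out shared barcodes and keeping only cells with a Sox10 UMI.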

Additional observations from a re-analysis of the deposited data

Results flagged for a closer look

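Of the 14 pathway genes at 10 CPM or more in a main class, 6 had opposite gland differences in the 2 tissues. In all 6, both counting intervals lay away from no difference. The share of all genes that meet this rule was not computed, so the 6 are not read as a trait of the pathway. At 2-fold or more in both tissues, 14 and 23 of 7032 genes had opposite patterns, and of these 6 only Hpgd did. The difference between tissues was not tested, since each group has 1 library. The log2 ratio of submandibular over parotid was 4.09 in epithelium and -3.81 in mesenchyme for Hpgd, which was chosen for this pattern. For the phospholipase gene Pla2g4a it was -0.34 in epithelium and 2.54 in mesenchyme, the mirror of Hpgd, with the difference lying mostly in mesenchyme. The other genes differed by far less: Akr1b3 by 0.23 and -0.61, Pla2g12a by 0.28 and -0.36, Ptgr1 by -0.41 and 0.38, and Ptgr2 by -0.46 and 0.58, in epithelium and mesenchyme respectively.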

How the results depend on the processing

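Over 230 recalculated log2 ratios of the members, 216 stayed within the counting interval of the reported value, 14 moved outside it and 0 of the ratios whose interval excludes no difference turned direction. The log2 gland ratio of Hpgd in epithelium became 4.45 without the cluster highest in Hpgd in each library and 3.04 in cells with a Sox10 UMI only. The ratio of Hpgd in mesenchyme became -1.84 with every barcode and no classes. The other settings, leaving out shared barcodes or the highest doublet scores among them, kept both Hpgd gland ratios within their counting intervals. With a minimum of 10 CPM in place of 50, the genes at least 2-fold higher numbered 216 and 299 in epithelium and 511 and 329 in mesenchyme (submandibular, then parotid), and with at least 10 UMIs and no CPM minimum 831, 1181, 1983 and 1088. TMM scaling shifted all log2 gland ratios by 0.09 in epithelium and by -0.12 in mesenchyme, and the log2 tissue ratio by 0.29 in the submandibular gland. With the pathway genes allowed in the clustering, the highest cluster of Hpgd stood at 234 CPM in submandibular epithelium and 90.4 CPM in parotid mesenchyme. The counts of Ptgs2 and, in epithelium, of Ptgs1 and Ptger4 are too few to order the glands. No paired analysis was possible because each group has 1 library.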

Other observations

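Macrophage-like cells of the submandibular mesenchyme library held other prostanoid genes besides Hpgd and Ptgs1. Hpgds, which encodes the haematopoietic prostaglandin D synthase, stood at 293 CPM there (229 to 370), from 71 UMIs in 17 of 22 cells, against 7.45 and 11.7 CPM in submandibular and parotid epithelial-like cells. Tbxas1, the thromboxane synthase gene, gave 7 UMIs in 4 of these cells and none in either epithelial class. Alox12, a lipoxygenase gene, stood at 5.13 CPM in submandibular (4.43 to 5.90) and 1.96 CPM in parotid epithelial-like cells (1.28 to 2.87), below the 10 CPM used for naming. Ptgis stood at 82.3 CPM in skeletal muscle-like cells of the submandibular and 30.9 CPM in those of the parotid mesenchyme library.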
